A study of Mus musculus with 8 samples.

Results

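The 8 bulk RNA libraries of this series were split by well number, with wells 1 and 2 of both treatments on one side (vehicle 1, vehicle 2, MCH 1 and MCH 2, n = 4) and wells 3 and 4 of both treatments on the other (vehicle 3, vehicle 4, MCH 3 and MCH 4, n = 4), so that all 8 of the 8 libraries were used. The members were chosen by the first principal component of these same counts, which separates the numbers in this way. The differences between the sides are therefore given as a description, with their size and standard error (SE) and without a test. Each side holds both treatments in equal number, and treatment was a covariate in the fit. Only the effect of MCH within each side, and the difference between these effects, were tested.

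All wells held hippocampal neurons of embryonic day 18 C57/Bl6 wild type mice, and a model tag for Alzheimer's disease in the labels stands beside that wild-type genotype in every library. Vehicle wells received H2O for 4 h and MCH wells received 1 µM melanin-concentrating hormone (MCH), a hypothalamic peptide, for the same time, and cells were collected between 12 and 14 days in vitro. Per the methods of the study, 2 independent cultures gave 2 wells per treatment each, and the cultures received 5-fluoro-2′-deoxyuridine, which blocks DNA synthesis, to limit glia. Which culture a number came from is given neither by the labels nor by the methods, so wells 1 and 2 and wells 3 and 4 are named here by number alone. Age within the 12 to 14 day window, culture, plating and handling cannot be told apart in this design.

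Cultures of embryonic hippocampus contain neurons, but also neural progenitors and glia that keep dividing unless they are suppressed. Astrocytes take up glutamate and potassium, carry water channels and gap junctions, and are recognised by the intermediate filament GFAP. Inhibitory neurons make GABA with the glutamate decarboxylases encoded by *Gad1* and *Gad2*, and their subtypes carry neuropeptides such as somatostatin and neuropeptide Y.

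Library totals ran from 26083936 to 31844861 estimated counts. In log2 CPM (counts scaled to a common library total) with the treatment means removed, the first component held 59.81% of the variance, and placed wells 1 and 2 between 23.7 and 30.1 and wells 3 and 4 between -29.9 and -23.3. The second component, with 9.95%, had MCH 1 at -20.1 and MCH 2 at 20.1, with the other 6 wells between -6.59 and 7.37. The share of mitochondrially encoded counts was 0.90% to 1.07% in wells 1 and 2 and 0.99% to 1.13% in wells 3 and 4, the sides overlapped in depth, and no 2 libraries agreed within sampling noise. Pan-neuronal genes were detected in every well, at a summed 10750 to 10860 CPM in wells 1 and 2 and 10090 to 10330 CPM in wells 3 and 4, beside glial genes.

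The astrocyte markers were several-fold higher in wells 3 and 4, whereas *Gad1* and *Gad2* were slightly higher in wells 1 and 2. *Gfap* (ENSMUSG00000020932, minus strand, GRCm38 chr11:102887336-102900912) was at 167 and 150.2 CPM in vehicle wells 1 and 2, at 128 and 119.6 in MCH wells 1 and 2, at 599.5 and 589 in vehicle wells 3 and 4, and at 675 and 643 in MCH wells 3 and 4. The highest of the first 4 values was below the lowest of the other 4, and the means were 141 ± 21.6 and 627 ± 40.1 CPM (SD, n = 4 each), a ratio of 4.44 and a log2 difference (wells 1 and 2 minus wells 3 and 4) of -2.16 (SE 0.12). *Aqp4*, the water channel of astrocyte endfeet, was at 11 and 10.4 CPM in vehicle wells 1 and 2 and at 7.44 and 7.32 in the MCH wells of those numbers, against 52.8 and 52.1 in vehicle wells 3 and 4 and 59.7 and 58.2 in MCH wells 3 and 4. The sides did not overlap, and the ratio was 6.17 (log2 difference -2.63, SE 0.14). *Slc1a3*, which encodes the glial glutamate transporter GLAST (minus strand, chr15:8634124-8710764), was at 197, 174, 172 and 151 CPM in vehicle 1, vehicle 2, MCH 1 and MCH 2, and at 631, 597, 658 and 633 CPM in vehicle 3, vehicle 4, MCH 3 and MCH 4. Its ratio of 3.62 (log2 difference -1.86, SE 0.08) was again without overlap.

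*Gad1* (plus strand, chr2:70553072-70602014) was at 1243, 1203, 1119 and 1108 CPM in wells 1 and 2, given in the same order, and at 1041, 1107, 1023 and 1040 CPM in wells 3 and 4. The lowest well of the first side lay just above the highest of the second, with a log2 difference of 0.15 (SE 0.02). *Gad2* (plus strand, chr2:22622205-22693874) was at 575, 566, 543 and 525 CPM in wells 1 and 2 and at 442, 478, 427 and 443 CPM in wells 3 and 4, without overlap and with a log2 difference of 0.30 (SE 0.03). The ratios of the 3 astrocyte markers were thus 3.62 to 6.17 in favour of wells 3 and 4, and those of the 2 GABAergic markers 1.11 and 1.23 in favour of wells 1 and 2.

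**Figure D1:**
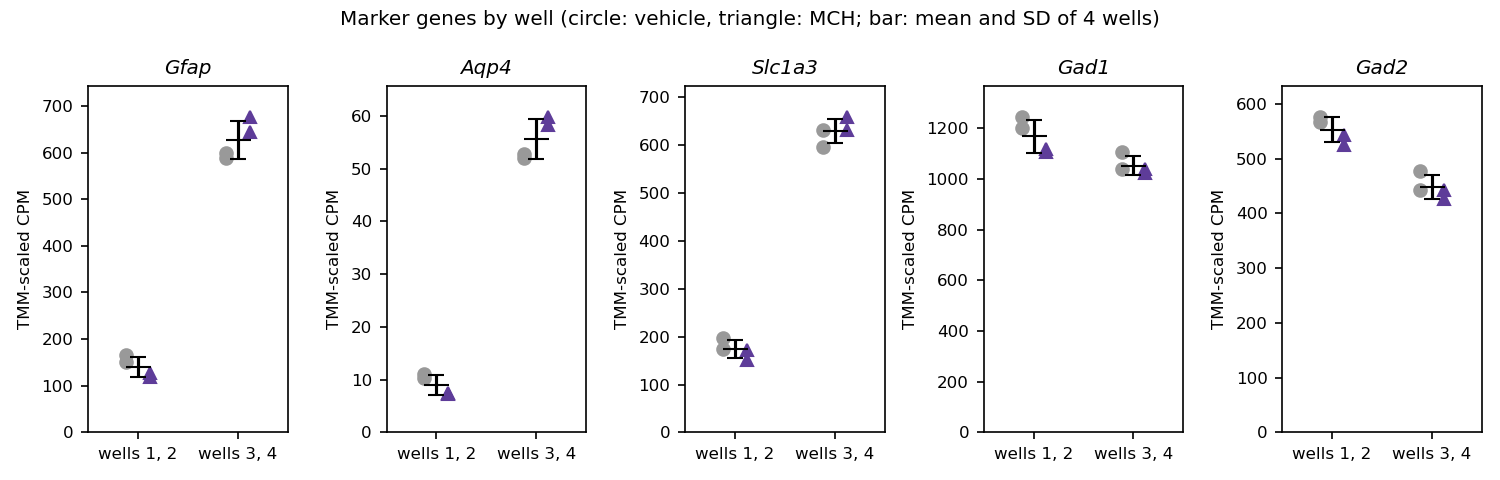
Levels of the 5 marker genes in each well, in CPM scaled with trimmed-mean (TMM) factors, with wells 1 and 2 on the left of each panel and wells 3 and 4 on the right. Circles are vehicle wells, triangles MCH wells and bars the mean and SD of 4 wells. *Gfap*, *Aqp4* and *Slc1a3* are higher in all 4 wells numbered 3 and 4, and *Gad1* and *Gad2* are slightly lower there.

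Across the transcriptome the difference was one-sided among large differences. A gene is called here when its log2 difference was at least 1 in size and the 4 wells of one side did not overlap the 4 of the other in TMM-scaled CPM. Of 14962 genes that passed the filter on low counts, 823 (5.5%) were called, 799 of them (5.34%) higher in wells 3 and 4 and 24 (0.16%) higher in wells 1 and 2. These shares follow from the choice of the split and are the background for every list below. The sides were apart without regard to size in 4422 genes (29.6%), of which 2477 (16.6%) were higher in wells 3 and 4 and 1945 (13%) in wells 1 and 2. The median log2 difference over all genes was 0.00, and 102 genes differed by 2 or more towards wells 3 and 4, against 2 towards wells 1 and 2. Most called genes were of low level: 597 of the 799 and 21 of the 24 had a mean under 5 CPM over the 8 wells. At the edge of the rule, 81 genes differed by 1 or more but overlapped between the sides. With only vehicle wells or only MCH wells (2 against 2), 881 and 1016 genes were called, and 817 and 964 of them were higher in wells 3 and 4.

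**Figure D2:**
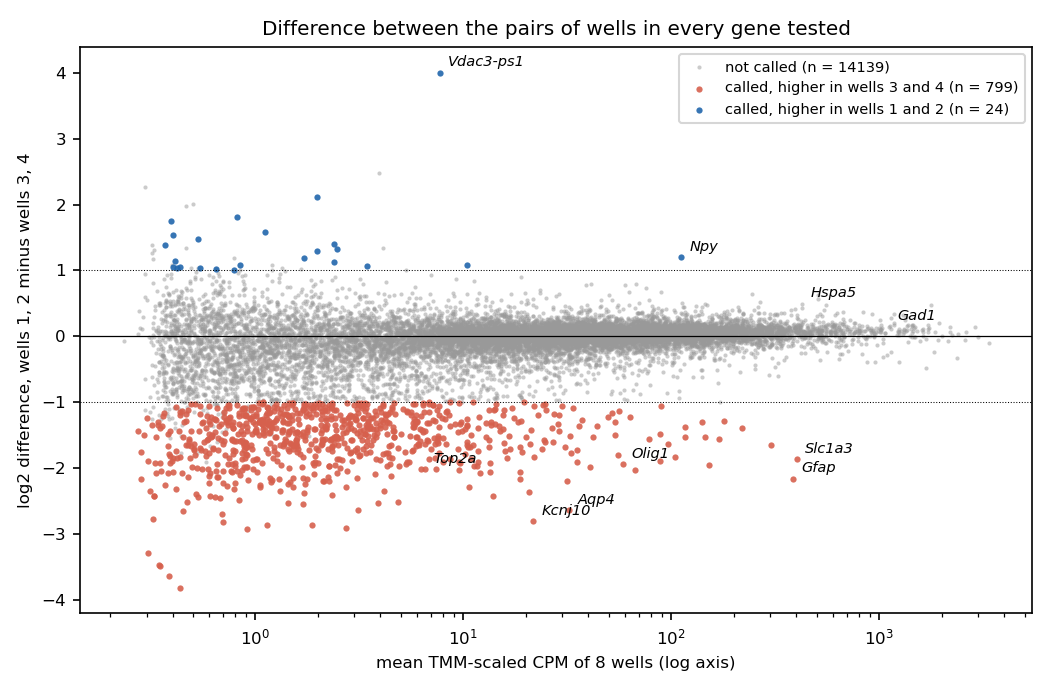
Log2 difference between the sides (wells 1 and 2 minus wells 3 and 4) against the mean level over 8 wells (TMM-scaled CPM, log axis), 1 point per gene tested (14962). Orange points are the 799 genes called higher in wells 3 and 4 and blue points the 24 called higher in wells 1 and 2, with dotted lines at 1 and -1. Called genes lie almost all below 0, while the median over all genes is 0.00.

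Of called genes with a mean of at least 5 CPM and a symbol that is not a model name, 201 were higher in wells 3 and 4, and the 15 with the largest differences were *Kcnj10*, *Aqp4*, *Cybrd1*, *Gja1*, *Zic1*, *Slco1c1*, *Serpinh1*, *Gfap*, *Tril*, *Emp2*, *Aldh1l1*, *Axl*, *Plpp3*, *Top2a* and *Afap1l2*, from -2.81 to -2.02. *Kcnj10*, the inwardly rectifying potassium channel Kir4.1 of astrocytes, led with 7.16 and 5.04 CPM in vehicle wells 1 and 2, 5.33 and 4.28 in MCH wells 1 and 2, 41.1 and 30.9 in vehicle wells 3 and 4, and 42.6 and 37.4 in MCH wells 3 and 4 (ratio 6.97). *Gja1*, which encodes the gap junction protein connexin 43, was at 5.33 to 7.78 CPM in wells 1 and 2 and at 32.0 to 37.3 CPM in wells 3 and 4 (ratio 5.13). *Aldh1l1*, the folate enzyme used as an astrocyte marker, was at 4.77 to 6.31 CPM against 19.8 to 23.8 CPM (ratio 4.14). *Slco1c1*, a carrier for thyroid hormone, was at 8.90 to 13.6 CPM against 48.4 to 55.1 CPM (ratio 4.58). Some genes of this group are not astrocyte markers. *Serpinh1*, a collagen chaperone, had a ratio of 4.50, and *Zic1*, a transcription factor of neural progenitors and meninges, a ratio of 4.85. *Top2a*, the DNA topoisomerase of dividing cells, was at 1.88 to 3.19 CPM in wells 1 and 2 and at 9.55 to 10.9 CPM in wells 3 and 4 (ratio 4.02).

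In the astrocyte list, 19 of 20 genes passed the filter and 14 were called, all higher in wells 3 and 4, with a median log2 difference of -1.77 (0.00 over all genes). Its summed level was 1941 to 2068 CPM in wells 1 and 2 and 3813 to 4232 CPM in wells 3 and 4. The list was not uniform. Next to *Gfap*, *Aqp4* and *Gja1* stood *Aldoc* (-1.95), the brain aldolase, *Mlc1* (-1.89), *Hepacam* (-1.83), *Fgfr3* (-1.92), *Acsbg1* (-1.77), *Sox9* (-1.62), the glial transcription factor, *Slc4a4* (-1.5), *Glul* (-1.39), which makes glutamine from glutamate, and *S100b* (-1.20). Among members chosen after their values were seen, *Slc1a2*, which encodes the glutamate transporter GLT-1, was at 734, 675, 803 and 812 CPM in vehicle 1, vehicle 2, MCH 1 and MCH 2 and at 929, 812, 939.9 and 937 CPM in vehicle 3, vehicle 4, MCH 3 and MCH 4. Its sides were apart by less than 1 CPM at their nearest wells, and the log2 difference was -0.26 (SE 0.05). *Sparcl1* was likewise close between the sides, at 253 to 267 and 288 to 300.0 CPM (log2 difference -0.19, SE 0.03), and *Ntsr2* overlapped (-0.18, SE 0.19). *Gjb6*, the remaining member, did not pass the filter, with 2 counts in total in wells 1 and 2 and 19 in wells 3 and 4.

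Per length, on the TPM scale (transcript abundance corrected for transcript length), *Gfap* had a mean of 105 TPM in wells 1 and 2 and 482 TPM in wells 3 and 4, and *Slc1a3* 78.1 and 283 TPM. *Slc1a2* stood at 149 and 162 TPM. The order of levels of these 3 genes therefore differed between the sides, with *Slc1a2* above *Gfap* and *Slc1a3* in wells 1 and 2 and below both in wells 3 and 4. In bulk RNA, fewer cells of a type and less RNA of these genes per cell cannot be told apart.

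The other non-neuronal lists lay on the same side. For radial glia and neural progenitors, all 14 genes passed the filter and 10 were called higher in wells 3 and 4 (median -1.37). They included *Fabp7* (-1.83), *Pax6* (-1.82), *Nes* (-1.36) and *Vim* (-1.37), and *Eomes*, the transcription factor of intermediate progenitors, which was at 0.04 to 0.10 CPM in wells 1 and 2 and 0.41 to 0.81 CPM in wells 3 and 4. For proliferation, 20 of 20 genes passed and 14 were called higher in wells 3 and 4 (median -1.25). *Mki67*, the marker of cycling cells, was at 1.70, 1.31, 2.14 and 1.01 CPM in vehicle 1, vehicle 2, MCH 1 and MCH 2 and at 5.78, 4.27, 4.88 and 5.37 CPM in vehicle 3, vehicle 4, MCH 3 and MCH 4. *Cdk1*, the mitotic kinase, had means of 0.64 and 2.91 CPM (ratio 4.54). Within this list the mitotic genes *Ccnb1* (-2.15), *Aurkb* (-1.57), *Cdc20* (-1.46) and *Plk1* (-1.41) differed more than the replication genes *Mcm6* (-0.27), *Tyms* (-0.23), *Mcm2* (-0.19) and *Pcna* (-0.14). These members were picked after their values were seen. Mitotic and replication genes were not apart as groups, since the 14 called genes were not all mitotic.

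In the oligodendrocyte precursor list, 8 of 12 genes passed and 5 were called higher in wells 3 and 4 (median -1.11). *Olig1*, a transcription factor of the lineage that is also found in progenitors, was at 24.7, 26.6, 22.9 and 22.9 CPM in vehicle 1, vehicle 2, MCH 1 and MCH 2 and at 100.8, 88.2, 101.4 and 79.8 CPM in vehicle 3, vehicle 4, MCH 3 and MCH 4 (ratio 3.81). *Olig2* had a ratio of 5.28 at 0.55 and 2.88 CPM. The defining receptor *Pdgfra* did not follow them: it had means of 1.6 ± 0.35 and 1.66 ± 0.18 CPM (SD, n = 4 each), with a log2 difference of -0.05 (SE 0.20). *Sox10*, which defines the lineage, was at 0 counts in all 8 wells, which allows up to 3 counts per library, and *Gpr17* and *Neu4* were near 0. Of 12 mature oligodendrocyte genes, 5 passed and 0 were called (median -0.12, but -0.29 with MCH wells only, -0.27 without MCH 1, -0.21 without vehicle 1 and -0.07 without MCH 4), and the myelin gene *Mog* was at 0 counts in every well.

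Microglial genes had a median of -1.15, with 12 of 15 members past the filter and 8 called higher in wells 3 and 4, all at low level. *C1qa*, a subunit of the first complement component, was at 2.25, 1.34, 1.12 and 1.13 CPM in vehicle 1, vehicle 2, MCH 1 and MCH 2 and at 2.79, 4.27, 3.98 and 3.97 CPM in vehicle 3, vehicle 4, MCH 3 and MCH 4. The fractalkine receptor *Cx3cr1* had means of 0.51 and 1.43 CPM (ratio 2.81). *Csf1r* showed next to no difference (0.11, SE 0.15), and *P2ry12* and *Tmem119* did not pass the filter, with 5 and 2 counts in total in wells 1 and 2 and 25 and 11 in wells 3 and 4. In the list for mural cells and fibroblasts, 13 of 14 passed and 9 were called higher in wells 3 and 4 (median -1.08), among them *Tagln* (-1.86), *Dcn* (-1.43) and the collagen gene *Col1a2* (0.83 to 1.20 CPM against 2.01 to 3.38 CPM). For ependyma and choroid plexus, 8 of 10 passed and 5 were called higher in wells 3 and 4 (median -1.34). *Ttr*, the thyroxine carrier secreted by choroid plexus, was the most abundant of them, at 21.3 to 28.4 CPM in wells 1 and 2 and 56.0 to 72.4 CPM in wells 3 and 4 (ratio 2.56). Only 4 of 10 endothelial genes passed (median -0.96), and 2 were called higher in wells 3 and 4.

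Most neuronal lists had medians near 0. Of 16 pan-neuronal genes, all of which passed, 0 were called, and the median log2 difference was 0.08, with members between -0.08 (*Thy1*) and 0.26 (*Nefh*). *Rbfox3*, which encodes the nuclear protein NeuN, had means of 136 ± 6.25 CPM in wells 1 and 2 and 135 ± 3.79 CPM in wells 3 and 4 (SD, n = 4 each). The medians of the glutamatergic, hippocampal subfield and GABAergic lists were 0.03, -0.11 and 0.10. The hippocampal subfield median was -0.01 with MCH wells only and -0.18 with vehicle wells only. It was -0.16 without MCH 4, -0.06 without vehicle 1 and -0.06 without vehicle 3. *Slc17a7*, the vesicular glutamate transporter of excitatory neurons, was at 1430, 1436, 1453 and 1588 CPM in vehicle 1, vehicle 2, MCH 1 and MCH 2 and at 1249, 1180, 1223 and 1169 CPM in vehicle 3, vehicle 4, MCH 3 and MCH 4 (log2 difference 0.29, SE 0.03). *Nkx2-1*, a factor of ganglionic eminence progenitors, was called against the direction of the GABAergic list, higher in wells 3 and 4 (0.57 and 1.6 CPM).

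The immature neuron list had a median of -0.12, with 1 of 14 genes called. That gene, *Igfbpl1*, which is expressed by neuronal precursors, was at 0.74, 1.05, 0.80 and 0.86 CPM in vehicle 1, vehicle 2, MCH 1 and MCH 2 and at 5.71, 5.02, 4.95 and 5.79 CPM in vehicle 3, vehicle 4, MCH 3 and MCH 4 (ratio 6.22). Other members differed far less: *Sox4* (-0.44), *Stmn1* (-0.31), *Dcx* (-0.24) and *Sox11* (-0.22) were lower in wells 1 and 2, and *Neurod6* (0.40) and *Neurod2* (0.21) were higher there.

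The interneuron subtype list held the most abundant gene called higher in wells 1 and 2. *Npy* (plus strand, chr6:49822710-49829507), which encodes neuropeptide Y, was at 169, 158, 149 and 146 CPM in vehicle 1, vehicle 2, MCH 1 and MCH 2 and at 65.1, 77.6, 65.2 and 61.4 CPM in vehicle 3, vehicle 4, MCH 3 and MCH 4. The sides were far apart, with a ratio of 2.31 in favour of wells 1 and 2 (log2 difference 1.21, SE 0.05). *Sst*, the somatostatin gene, lay on the same side at 585 to 633 CPM against 367 to 485 CPM (log2 difference 0.57, SE 0.08). The other members of this list ranged from *Chodl* (-0.56) to *Htr3a* (0.50), the serotonin receptor subunit of another interneuron class, and its median was 0.27 with 15 of 15 genes past the filter. *Vip* (-0.14), *Pvalb* (0.10) and *Nos1* (0.03) overlapped between the sides.

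**Figure D3:**
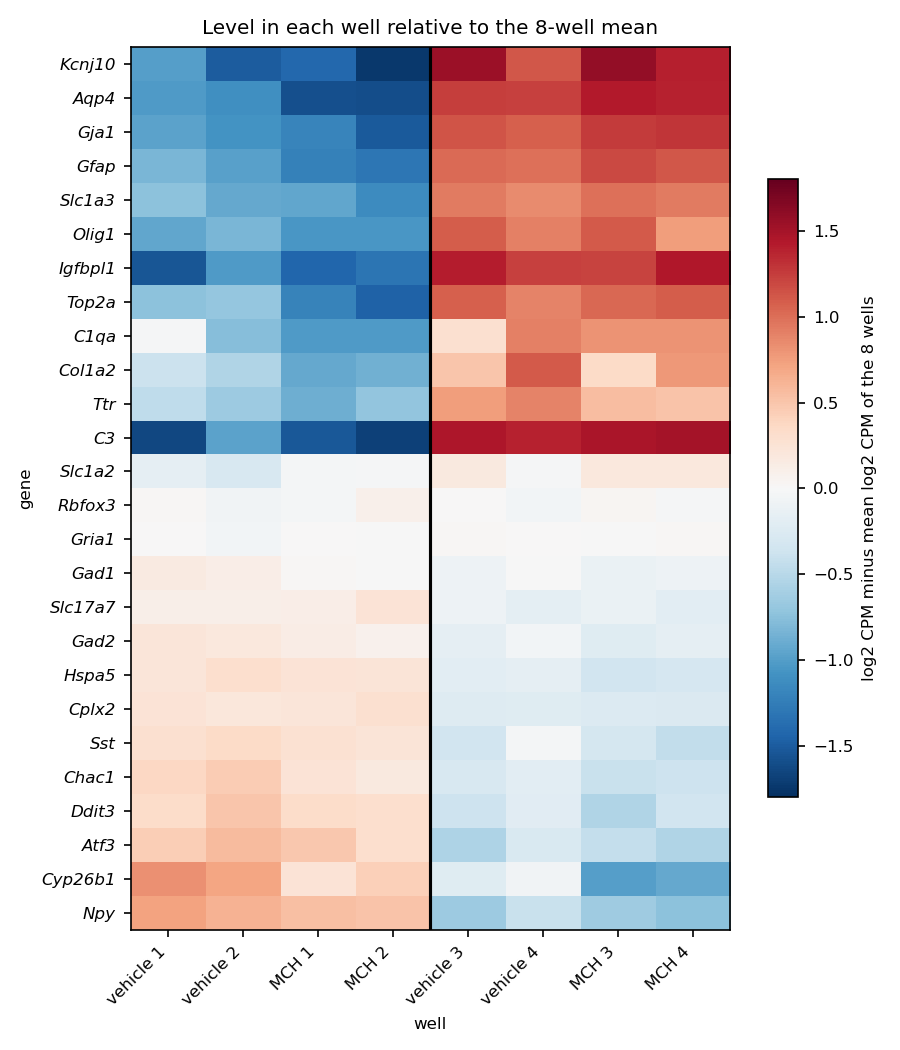
Level of 26 genes in each of the 8 wells, as log2 CPM minus the mean log2 CPM of the 8 wells (colour), with wells 1 and 2 left of the line and wells 3 and 4 right of it. Astrocyte, progenitor, microglial, fibroblast and choroid plexus genes (top) are low on the left. *Rbfox3* and *Gria1* are near 0, and *Gad1*, *Slc17a7*, *Gad2* and *Cplx2* are slightly higher on the left. *Npy*, *Cyp26b1* and stress genes (bottom) are high on the left.

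Besides *Npy*, the rule named *Cyp26b1* and *Vdac3-ps1* in this direction. *Cyp26b1*, which degrades retinoic acid, was at 16.8 and 15.6 CPM in vehicle wells 1 and 2 and at 11.3 and 12.8 CPM in MCH wells 1 and 2, against 8.21 and 9.10 CPM in vehicle wells 3 and 4 and 4.81 and 5.02 CPM in MCH wells 3 and 4 (ratio 2.08). *Vdac3-ps1*, a pseudogene on the minus strand of chr13:18030741-18031593, had the largest difference of the 24 genes, at 13.9, 17.1, 14.8 and 12.5 CPM against 0.92, 1.15, 0.59 and 0.98 CPM (log2 difference 4.00, SE 0.14). It can share reads with near-identical copies of *Vdac3*, so its level is uncertain, and *Vdac3* itself was at 186 to 208 CPM against 171 to 198 CPM. The remaining 21 genes had means under 5 CPM. Among them, chosen after their values were seen, were *Fgf21*, a hormone induced by the integrated stress response (0.61 and 0.18 CPM), *Npbwr1*, a neuropeptide receptor (4.65 and 2.22 CPM), *Cftr*, a chloride channel (3.28 and 1.5 CPM), and *Il1b*, the cytokine interleukin-1β (0.73 and 0.35 CPM).

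Few receptor, channel and synaptic genes were called. AMPA and kainate receptor genes had a median of 0.03 with 0 of 16 called, and *Gria1* and *Gria2* were level at -0.02 (SE 0.02) and 0.02 (SE 0.03). In the list of NMDA and metabotropic glutamate receptors, 2 of 13 were called higher in wells 3 and 4. They were *Grm3* (1.65 to 2.03 CPM against 6.35 to 7.68 CPM), the metabotropic receptor found on astrocytes, and *Grin2c* (-1.64). The GABA receptor list had a median of 0.06 and 0 of 14 called. Of 31 potassium channel genes, *Kcnj10* alone was called, and of 23 genes for sodium, calcium and HCN channels 0 were called. The synaptic vesicle list had a median of 0.14 (0.09 without MCH 1), with 0 of 23 called and 12 of 23 apart and higher in wells 1 and 2 (13% of all genes). The largest difference in this list was that of *Syt2*, a calcium sensor of vesicle release, at 0.58 to 0.89 CPM in wells 1 and 2 and 1.18 to 1.54 CPM in wells 3 and 4 (-0.81, SE 0.24). *Cplx2*, a complexin that clamps vesicle fusion, had the largest in the other direction, at 2081, 2026, 2046 and 2139 CPM in vehicle 1, vehicle 2, MCH 1 and MCH 2 and 1495, 1504, 1480 and 1464 CPM in vehicle 3, vehicle 4, MCH 3 and MCH 4 (log2 difference 0.48, SE 0.02). CPM are shares of a total, and the summed astrocyte level given above was higher in wells 3 and 4, opposite to the synaptic vesicle median and *Cplx2*. Whether these small differences depend on it was not tested.

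Reactive astrocyte genes had a median of -1.01, with 18 of 20 past the filter and 7 called higher in wells 3 and 4, 3 of which, *Gfap*, *Vim* and *C3*, belong to other lists too. *C3*, the central complement component, was at 0.39, 0.62, 0.42 and 0.38 CPM in vehicle 1, vehicle 2, MCH 1 and MCH 2 and at 3.28, 3.12, 3.32 and 3.41 CPM in vehicle 3, vehicle 4, MCH 3 and MCH 4 (ratio 7.32). *Gbp2* (-2.18), *Osmr* (-1.90), *S1pr3* (-1.90) and *Ptx3* (-1.62) lay with it, whereas *Serpina3n* (-0.29) and *Cd44* (0.04) did not. Complement genes as a group had a median of -1.18, 7 of 11 called higher in wells 3 and 4, and *C4b* among them was at 4.35 to 6.47 CPM against 18.1 to 19.3 CPM (ratio 3.73). Interferon response genes had a median of -0.53 (-1.04 with no filter on low counts) with 3 of 13 called, namely *Ifit3b* (-1.99), *Bst2* (-1.74) and *Ifit3* (-1.68), while *Stat2* (0.01) was level, and 8 further members did not pass the filter. In the NF-kB list, *Vcam1* (-1.92), *Icam1* (-1.46), *Lif* (-1.23) and *Nfkb2* (-1.17) were called higher in wells 3 and 4, and *Il1b* (1.04) in wells 1 and 2.

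Developmental signalling genes also lay towards wells 3 and 4. Notch pathway genes had a median of -0.95 (5 of 12 called), with the receptor *Notch1* at 2.50 to 3.83 CPM against 8.29 to 10.6 CPM, the glycosyltransferase *Lfng* at -2.35 and the target *Hes1* at -1.21, while the ligand *Dll1* (-0.19) and the target *Hey1* (-0.24) differed little. BMP genes had a median of -0.59 (-0.91 with no filter on low counts), with 5 of 12 called. The inhibitor of DNA binding *Id4* was at 4.12 to 6.74 CPM against 15.1 to 17.2 CPM, *Id1* and *Id3* were at -1.15 and -1.09, and *Id2* was level (-0.06). In the Hedgehog list, *Gli3* (-1.97), *Smo* (-1.68) and *Gli2* (-1.14) were called higher in wells 3 and 4, while the antagonist *Hhip* (0.87) lay the other way without being called. Extracellular matrix genes had a median of -0.73 (-0.46 with the transcript length offset), with 5 of 18 called. Wnt genes had one of -0.21 (-0.10 with vehicle wells only), with 2 of 14 called.

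In metabolism, fatty acid oxidation and ketone genes stood out with a median of -0.46 and 6 of 15 called, all higher in wells 3 and 4. *Cpt1a*, the gate of mitochondrial fatty acid import, had means of 8.56 and 22.6 CPM (-1.40). The enzymes that use ketone bodies, *Oxct1* (0.11) and *Bdh1* (0.16), lay slightly the other way. Glycolysis (median 0.07, *Aldoc* alone called), cholesterol synthesis (0.04), oxidative phosphorylation (0.07), cytosolic ribosomal proteins (-0.04) and housekeeping genes (0.02) had medians near that of all genes, and 0 members of the latter 4 were called. Mitochondrially encoded genes had a median of -0.35, but *mt-Atp6* (0.63) and *mt-Co3* (0.64) lay opposite to *mt-Nd4* (-0.39) and *mt-Co1* (-0.33). The 4 that did not overlap were *mt-Nd4*, *mt-Nd5*, *mt-Co1* and *mt-Cytb*. Nuclear copies of these genes can share their reads, so the single values are uncertain.

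Some stress genes lay towards wells 1 and 2 as well. In the list of the integrated stress and amino acid response, 19 of 19 genes passed, the median was 0.31 and 10 were apart and higher in wells 1 and 2 (13% of all genes), none by as much as 1. This response runs through the translation of ATF4, which switches on amino acid synthesis, and through CHOP, encoded by *Ddit3*. *Ddit3* was at 91.9, 102.9, 91.6 and 90.5 CPM in vehicle 1, vehicle 2, MCH 1 and MCH 2 and at 56.7, 63.2, 50.2 and 57.6 CPM in vehicle 3, vehicle 4, MCH 3 and MCH 4 (log2 difference 0.73, SE 0.05). *Chac1*, a glutathione-degrading target of this pathway, was at 55.3 to 66.9 CPM against 37.2 to 42.8 CPM (0.62, SE 0.04). *Trib3* (0.55), *Asns* (0.44), which makes asparagine, *Atf4* (0.42) and *Sesn2* (0.37) lay with them. *Gdf15* went the other way (-1.67, called), as did *Slc7a11* (-0.42). The activity- and stress-induced factor *Atf3* was at 24.6, 26.7, 25.1 and 22.2 CPM against 12.3, 15, 13.4 and 12.4 CPM (0.90, SE 0.07), the largest difference in the immediate early list, whose median was 0.12 and in which *Fos* (0.19), *Arc* (0.03) and *Npas4* (0.00) overlapped.

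For the unfolded protein response of the endoplasmic reticulum, 15 of 15 genes passed, 0 were called and the median was 0.17. In this list 8 genes were apart and higher in wells 1 and 2 (13% of all genes). *Hspa5*, which encodes the chaperone BiP, was at 489.7, 517, 499 and 494 CPM in vehicle 1, vehicle 2, MCH 1 and MCH 2 and at 370.0, 378, 332 and 339.9 CPM in vehicle 3, vehicle 4, MCH 3 and MCH 4 (0.50, SE 0.03). *Sdf2l1* (0.48), *Herpud1* (0.46), *Xbp1* (0.28), *Hyou1* (0.27) and *Hsp90b1* (0.20) followed, and *Pdia4* (-0.32) went the other way. The cytosolic heat shock list did not share this direction. Its median was 0.02, and *Bag3* (-1.75) and *Hspb8* (-1.54) were called higher in wells 3 and 4. Of the Nrf2 and glutathione genes (median -0.19), 2 of 17 were called in that direction, *Osgin1* (-2.04) and *Gstm1*, and of the p53 targets (median -0.11) and the MHC class I genes (median -0.23) 1 of 15 and 1 of 12, *Eda2r* (-1.37) and *H2-Q4* (-1.55). Hypoxia response genes (median -0.02), metallothionein and metal genes (0.00), replication-dependent histone genes (-0.08) and postsynaptic density genes (0.05) had 0 members called.

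The bases before the start of 3 members of these stress lists, picked among those with a motif match, are shown from RefSeq (GRCm38.p6). They run 5′ to 3′ on the strand of the gene and end at the base before the annotated start. Capitals mark matches to the endoplasmic reticulum stress element, searched on both strands as CCAAT, then 9 bases of any kind, then CCACG, in *Hspa5* (plus strand, chr2:34771840-34772089) and *Hsp90b1* (minus strand, chr10:86705445-86705694), and to the ATF4 and CHOP composite element, searched as TGATGCAA on both strands, in *Chac1* (plus strand, chr2:119350992-119351241).
Hspa5: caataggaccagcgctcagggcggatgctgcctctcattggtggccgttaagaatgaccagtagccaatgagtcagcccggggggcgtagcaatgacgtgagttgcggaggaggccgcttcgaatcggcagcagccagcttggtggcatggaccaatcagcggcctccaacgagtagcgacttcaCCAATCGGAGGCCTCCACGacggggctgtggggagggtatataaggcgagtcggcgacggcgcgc
Hsp90b1: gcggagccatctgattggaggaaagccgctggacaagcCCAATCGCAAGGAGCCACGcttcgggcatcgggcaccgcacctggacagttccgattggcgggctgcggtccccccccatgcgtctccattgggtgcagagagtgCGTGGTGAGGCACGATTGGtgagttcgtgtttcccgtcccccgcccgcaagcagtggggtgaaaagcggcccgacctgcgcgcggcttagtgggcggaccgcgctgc
Chac1: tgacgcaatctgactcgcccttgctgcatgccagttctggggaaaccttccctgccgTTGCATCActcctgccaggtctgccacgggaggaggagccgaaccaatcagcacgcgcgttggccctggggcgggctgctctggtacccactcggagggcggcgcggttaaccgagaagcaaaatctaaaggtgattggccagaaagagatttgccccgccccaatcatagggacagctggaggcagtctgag

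The first motif was in the 250 bases before the start of 7 of 13 matched genes of the unfolded protein response list (*Calr*, *Canx*, *Creld2*, *Dnajc3*, *Hsp90b1*, *Hspa5* and *Pdia6*) and in 0.113% of the 32851 promoters in the table. The match in *Hspa5* begins 65 bases before the start, and *Hsp90b1* has 2 matches, 1 on each strand. The log2 differences of the 7 genes with a match ran from -0.04 (*Creld2*) to 0.50 (*Hspa5*), and *Dnajc3* (-0.01) and *Canx* (0.04) were level. The second motif was found in *Chac1*, *Nupr1*, *Slc7a11* and *Vldlr* among 17 matched genes of the integrated stress list, and in 0.791% of all promoters. Their log2 differences were 0.62, 0.50, -0.42 and 0.14. Genes were counted with a match in any of their promoters, whereas the shares count single promoters. The lists were drawn up by pathway, so the number of matches says nothing about the difference between the sides. These are matches of letters in a fixed window, and binding was not measured.

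**Figure D4:**
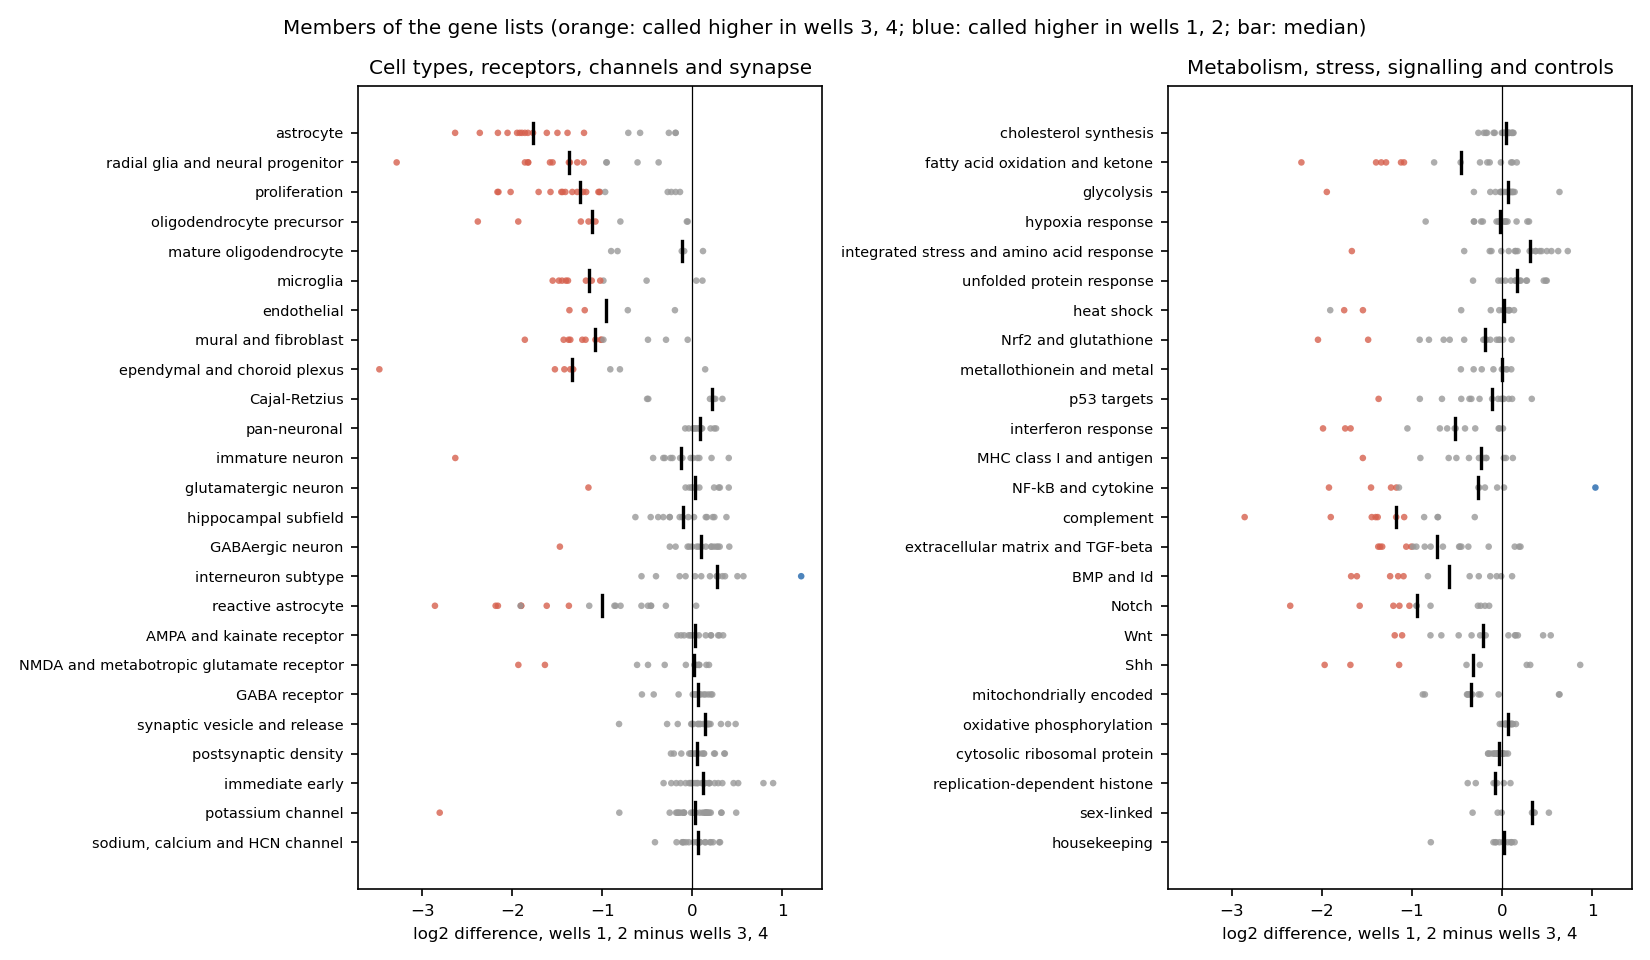
Log2 difference between the sides (wells 1 and 2 minus wells 3 and 4) for each member of 50 gene lists that passed the filter, with the list median as a black bar. Orange members are called higher in wells 3 and 4 and blue members in wells 1 and 2. Lists of non-neuronal cells have medians left of 0, and the largest positive medians are those of the sex-linked (0.33), integrated stress (0.31), interneuron subtype (0.27), Cajal-Retzius (0.22, but -0.36 with no filter on low counts) and unfolded protein response (0.17) lists.

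Genes of the sex chromosomes differed as well, and the labels do not give the sex of the embryos. The Y-linked *Ddx3y* was at 37.3 to 43.0 CPM in wells 1 and 2 and at 30.0 to 31.7 CPM in wells 3 and 4 (0.36, SE 0.05), and *Uty* (0.52), *Eif2s3y* (0.36) and *Kdm5d* (0.33) were higher in wells 1 and 2 too, without overlap. *Xist*, the RNA that coats the inactive X chromosome, was at 238, 236, 336 and 273 CPM in vehicle 1, vehicle 2, MCH 1 and MCH 2 and at 351, 308, 344 and 348 CPM in vehicle 3, vehicle 4, MCH 3 and MCH 4, so that its sides overlapped (-0.33, SE 0.10).

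The MCH receptor *Mchr1* had means of 9.90 ± 0.81 CPM in wells 1 and 2 and 9.71 ± 0.34 CPM in wells 3 and 4 (SD, n = 4 each; log2 difference 0.03, SE 0.08). The gene for the peptide itself, *Pmch*, had 1 count in 1 of 8 wells and did not pass the filter.

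Whether MCH acted alike in both sides was tested with edgeR's quasi-likelihood test of the interaction, which does not use the difference that chose the split. Adjusted p-values are those of Benjamini and Hochberg over the 14962 genes, and since wells of 1 culture may be technical replicates they measure only the spread between wells. The interaction passed 0.05 in 4 genes (0.0267%), 3 negative (0.0201%) and 1 positive (0.00668%), and in 1137 genes at an unadjusted p under 0.05. DESeq2 called 12 and limma voom 3. *Gfap* fell with MCH in wells 1 and 2, by 0.36 on the log2 scale (SE 0.05, adjusted p = 0.000387), and its MCH effect in wells 3 and 4 was 0.15 (SE 0.04, adjusted p = 0.179). Both MCH wells were below both vehicle wells on the first side and above both on the second, and the effects differed by -0.51 (SE 0.07, adjusted p = 0.00432, edgeR). Without vehicle 3 and without vehicle 4 in turn, that adjusted p was 0.151 and 0.0822.

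*Aqp4* fell with MCH by 0.53 in wells 1 and 2 (SE 0.09, adjusted p = 0.00175), its MCH effect in wells 3 and 4 was positive at 0.17 (SE 0.06, adjusted p = 0.246), and the difference was -0.70 (SE 0.11, adjusted p = 0.0103, edgeR). It was past the threshold in 5 of 8 fits that leave out 1 well, but not without vehicle 1 (adjusted p = 0.132), MCH 3 (0.0561) or vehicle 3 (0.0579). *Ptn*, which encodes the secreted growth factor pleiotrophin, was at 66.7 and 65.6 CPM in vehicle wells 1 and 2 and at 52.8 and 56.1 in MCH wells 1 and 2, against 163 and 162 in vehicle wells 3 and 4 and 179.5 and 190.3 in MCH wells 3 and 4. It fell with MCH in wells 1 and 2 (-0.28, adjusted p = 0.00217) and rose in wells 3 and 4 (0.19, adjusted p = 0.0492), with a difference of -0.47 (SE 0.07, adjusted p = 0.00432, edgeR). Without vehicle 1 and without MCH 4, the adjusted p of the difference was 0.0792 and 0.0823. The log2 effects kept their sign in all these fits, but the count of 4 genes depended on single wells: it was 277 without MCH 2, 26 without MCH 1, 10 without MCH 3, 9 without vehicle 2, 8 without vehicle 4 and 7 without MCH 4. The 4th gene, the pseudogene *Gm14536*, is near 0 counts and is given with the outlying values.

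The astrocyte list as a whole had a median interaction of -0.29, with 17 of 19 members below 0, against a median of -0.01 over all genes. Some other lists had medians of like size: -0.42 for complement, -0.29 for proliferation (15 of 20 below 0) and -0.26 for radial glia and progenitors (11 of 14 below 0). The NF-kB and cytokine list had -0.29 (6 of 11 below 0). Microglia had -0.25 and mural cells and fibroblasts -0.23. The remaining non-neuronal lists did not share this size. Their medians were -0.15 for mature oligodendrocytes, -0.07 for reactive astrocytes and -0.02 for oligodendrocyte precursors. Ependyma and choroid plexus (0.15) and endothelial genes (0.20) lay the other way, as did the Hedgehog list (0.21). For the astrocyte list, the median MCH effect was -0.20 in wells 1 and 2 and 0.11 in wells 3 and 4. In wells 1 and 2, 5 of 19 members fell with MCH (*Gfap*, *Aqp4*, *Aldoc*, *Clu* and *Mlc1*), where 1.79% of all genes fell, and in wells 3 and 4 0 of 19 passed the test.

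In all genes, MCH effects passed the threshold in 579 (3.87%) in wells 1 and 2, of which 311 rose and 268 fell, and in 117 (0.782%) in wells 3 and 4, of which 27 rose and 90 fell (0.602%). Leaving out 1 well moved the first count to 154 without vehicle 2, 274 without vehicle 1 and 872 without MCH 2. It moved the second to 27 without MCH 4, 34 without vehicle 4, 36 without MCH 3, 68 without vehicle 3, 201 without MCH 2 and 204 without MCH 1. The sides have their own vehicle wells, and 90 genes passed in both, 15.54% of the first set and 76.92% of the second, with the same sign in 88. Of 28 immediate early genes, which neuronal activity induces, 17 fell in wells 1 and 2 and 18 in wells 3 and 4, with medians of -0.38 and -0.42 and a median interaction of 0.01. *Fos* fell by 0.99 and by 0.82 and *Nr4a1* by 1.09 and by 0.99 on the log2 scale, all past the threshold, and their interaction did not pass it. With replicate number as a block, which is fitted within the pairing of same-numbered wells, the interaction passed the threshold in 59 genes instead of 4. The labels state no pairing beyond the shared number. Deviations of vehicle and MCH wells correlated at 0.445 to 0.545 for the same number and at 0.475 to 0.521 for the other number of a side.

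**Figure D5:**
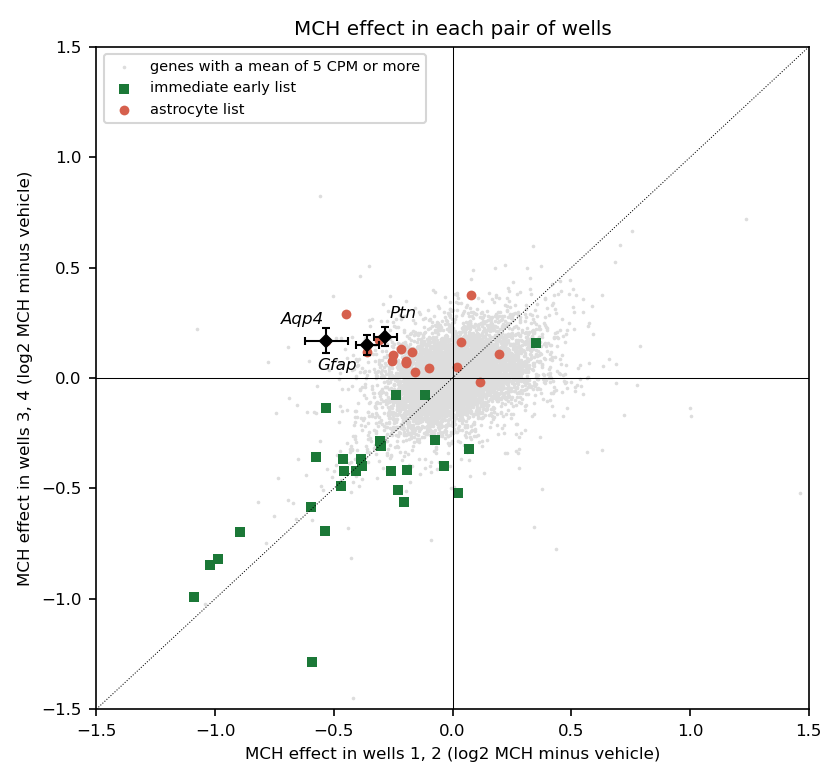
Effect of MCH (log2, MCH minus vehicle) in wells 1 and 2 against its effect in wells 3 and 4, for 10917 genes with a mean of 5 CPM or more (grey, 1 gene outside the axes), the immediate early list (green squares) and the astrocyte list (orange circles). Black diamonds with bars are *Gfap*, *Aqp4* and *Ptn* with their SE, and the dotted line marks equal effects. Most immediate early genes are below 0 on both axes, whereas *Gfap*, *Aqp4* and *Ptn* are below 0 in wells 1 and 2 and above 0 in wells 3 and 4.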

How the data were processed

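Per the methods of the study, the authors quantified reads of stranded poly-A libraries with Salmon in an nf-core pipeline on GRCm38. The deposited gene table holds estimated counts per gene, unscaled, of which 9.13% were not whole, and the deposited transcript tables also hold the authors' TPM. Treatment and number came from the labels. GENCODE vM21 named 45143 of 45706 genes (98.8%); the release behind the deposited table is not given in the sources used here. Totals of 26083936 to 31844861 set the precision.

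After rounding to whole numbers, edgeR 4.0.16 was run under R 4.3.3 (TMM scaling, filterByExpr by treatment with a count minimum of 10 and a total minimum of 15, robust quasi-likelihood). The well difference was fitted with treatment as covariate and its SE reported without a test, the interaction and the MCH effects were tested with Benjamini-Hochberg adjustment at 0.05, and no gene set was tested. The fits were also run on simulated counts, whose outcome is not given here. The simulated wells were drawn independently, so that run cannot speak to wells that share a culture. The split, the 51 lists and the rule for named genes were chosen with earlier results of these data known. The rule names the 5 markers, up to 15 largest called differences per direction with a mean of at least 5 CPM and no model name, the called and extreme members of each list, interaction genes past the threshold, and *Mchr1*, *Pmch*, *Gria1* and *Gria2*. All other genes named were chosen after their values were seen. *Dlx6os1*, *Ctgf* and *Cyr61* were not found under these symbols. Values of a few list members are not reported here.

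The labels give both treatments the same numbers. Deviations from the treatment means correlated, between a vehicle and an MCH well, at 0.445 to 0.545 for the same number, at 0.475 to 0.521 for the other number of a side and at -0.548 to -0.438 across sides. Within a treatment they correlated at 0.282 to 0.417 on a side and at -0.708 to -0.614 across sides. The 4 deviations of a treatment sum to 0 in each gene, which lowers the correlations within a treatment. They can therefore not be set against those between treatments. The grouping into sides comes from the counts and not from a stated batch. The number is nested in the side and could not be fitted beside it for the well difference. Alternatives were DESeq2 1.42.0 and its size factors, limma voom (limma 3.58.1), no filter, no covariate, vehicle or MCH wells only, transcript length offsets, the replicate block and leaving out each well.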

Additional observations from a re-analysis of the deposited data

Results flagged for a closer look

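Of 120 groups of 4 wells examined, 10 held a well that stood apart by Dixon's criterion, where chance gives about 1 in 20. In wells 1 and 2, vehicle 1 was high in *Axl* (4.18 CPM, the others 3.55 to 3.64), vehicle 2 in *Ddit3* (102.9 CPM, the others 90.5 to 91.9) and in *C3* (0.62 CPM, the others 0.38 to 0.42), MCH 1 in *Eomes* (0.10 CPM, the others 0.04 each) and MCH 2 in *Slc17a7* (1588 CPM, the others 1430 to 1453). In wells 3 and 4, vehicle 4 was high in *Mchr1* (10.2 CPM, the others 9.48 to 9.58) and low in *Slc1a2* (812 CPM, the others 929 to 939.9) and in *Xist* (308 CPM, the others 344 to 351), MCH 3 was high in *Cdk1* (3.63 CPM, the others 2.63 to 2.71) and MCH 4 in *Nkx2-1* (2.21 CPM, the others 1.38 to 1.42).

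The effect of MCH differed between wells 1 and 2 and wells 3 and 4, by the edgeR interaction, in *Gfap* (-0.51), *Ptn* (-0.47) and *Aqp4* (-0.70). It also passed in *Gm14536*, a short pseudogene on the X chromosome, with a fitted 15.24 that depends on the prior count and is no measure of size. *Gm14536* was listed at 0 in vehicle 1, vehicle 2, MCH 3 and MCH 4 and at 1.25, 0.41, 1.02 and 0.78 CPM in MCH 1, MCH 2, vehicle 3 and vehicle 4.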

How the results depend on the processing

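Every alternative kept the count of 823 called genes and the 799 higher in wells 3 and 4 within 1.5 times. The 24 genes higher in wells 1 and 2 became 52 with MCH wells only, 64 with vehicle wells only and 91 with no filter on low counts. The astrocyte median of -1.77 was -1.94 with MCH wells only and -1.60 with vehicle wells only. The Cajal-Retzius median of 0.22 (6 of 9 genes passed) turned to -0.36 without the filter. The medians of 7 further lists, each at most 0.1 in size, changed sign under some alternative, such as cholesterol synthesis (0.04, and -0.01 with vehicle wells only) and hypoxia (-0.02, and 0.01 with vehicle wells only). Medians over 0.1 in size moved by over 1.5 times under some alternative in 11 lists. Among these, the GABAergic median of 0.10 was 0.16 with the transcript length offset and 0.05 with vehicle wells only. The MHC class I median of -0.23 was -0.37 with MCH wells only. The 4 interaction genes became 12 with DESeq2, 266 with no filter, 0 with the transcript length offset and 59 with the replicate block, and 3 to 277 when 1 well was left out. With limma voom the adjusted p of *Aqp4* was 0.0634. The 579 MCH genes of wells 1 and 2 became 1166 with no filter and 0 with the offset, and 154 (without vehicle 2) to 872 (without MCH 2) when 1 well was left out. The 117 of wells 3 and 4 became 353 and 0, and 27 (without MCH 4) to 204 (without MCH 1). With the offset, the common dispersion was 0.0111 instead of 0.00166 and the median prior degrees of freedom 3.54 instead of 15.1. The cause of these changes was not tested.

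The 2 cultures were not assigned to numbers, and with 4 wells on each side the split stands for 1 difference between 2 sets of wells. Depth limits statements on genes of a few counts, such as most endothelial and oligodendrocyte markers.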
